A study of Drosophila melanogaster with 20 samples.

Results

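Insulin signalling in the adult Drosophila brain was followed through 9 genes, the insulin-like peptide genes Ilp2, Ilp3, Ilp5 and Ilp6, the receptor gene InR, the genes ImpL2 and Sdr for secreted proteins that bind insulin-like peptides, the adaptor gene chico and the transcription factor gene foxo. A gene was followed where a probe set of the array named it as its only gene symbol, under its current or a former name. This gave 7 probe sets, 1 for each of 7 genes, of 18769 probe sets tested and 11981 genes named. For Ilp3 and Ilp6 there was no such probe set, and both were not analysed here.

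Messenger RNA was measured on 20 arrays, 5 in each of 4 groups. Surface glia were the fluorescent cells sorted from 9.137-GFP brains, all glia those from REPO-GFP brains and neurons those from ELAV-GFP brains. Each sort used 10 to 15 adult brains per replicate with both sexes together, and whole brains were 5 Canton S wild-type brains per replicate. Replicates came from separate bottles on separate days, per the labels. Brains for sorting were treated with collagenase and DNase at 37 degrees and shaken at 500 rpm for 5 min for surface glia, at 500 rpm for 20 min for all glia and at 1000 rpm for 20 min for neurons. Line, dissociation and cell type can therefore not be told apart between the sorts, and neither can genotype, dissociation and sorting where a sort is set against whole brain. The drivers behind the GFP lines set which cells each sort can hold, and a lower level of a transcript can come from fewer cells of a type or from less RNA per cell, which these data cannot tell apart.

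Insulin-like peptides are hormones of flies, and most of them bind one receptor tyrosine kinase, InR. In the brain, Ilp2, Ilp3 and Ilp5 are known as products of a small cluster of median neurosecretory neurons, the insulin-producing cells, while Ilp6 is known from fat body and, in larvae, from surface glia. The active receptor recruits the adaptor Chico and, through PI3 kinase and Akt, keeps the transcription factor Foxo out of the nucleus. ImpL2 is a secreted protein that binds insulin-like peptides, and Sdr is a secreted, receptor-like decoy that was described in the surface glia of larvae.

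The level of an array's background was taken from 44 negative control probe sets, which have no target in the fly. Their 95th percentile, averaged over the arrays of a group, was a log2 value of 5.23 in surface glia, 5.15 in all glia, 4.39 in neurons and 3.72 in whole brain, so background was higher in the sorted cells. The 3' minus 5' signal of control eIF-4a averaged 4.06 in surface glia, 4.24 in all glia, 4.96 in neurons and 2.25 in whole brain. This gap between the ends of a transcript was thus larger on average in each sort. Its part in the differences from whole brain was not tested. The 6 surface glia markers averaged 10.91 in surface glia, 9.40 in all glia, 4.36 in neurons and 8.44 in whole brain, and all 6 were called higher in surface glia than in neurons. Over all probe sets, 10.5% were called higher in that comparison. One of the 6, Gli, stayed within the negative controls in both groups, so its call carries no level. Defining markers did not separate every sort from the others. The neuronal marker list averaged 11.97 in surface glia, 12.65 in all glia, 12.89 in neurons and 12.60 in whole brain. Of 3 markers of astrocyte-like and ensheathing glia, 0 were called higher in all glia than in whole brain, 2 were called lower and 1 was not called. Gat, a transporter gene, lay near background in all glia at 3.78 against 11.59 in whole brain, while the transporter gene Eaat2 had 10.47 in all glia against 11.05 in whole brain. Of 5 pan-glial markers, 1 was called higher and 3 lower in all glia than in whole brain. All 5 were called higher in all glia than in neurons, where 3.18% of all probe sets were. Of 2 cortex glia markers, 2 were called lower in all glia than in whole brain and 2 higher than in neurons. Of all probe sets, 24.7% were called higher and 14.8% lower in all glia than in whole brain. The pan-glial gene repo averaged 7.85 in all glia, 5.62 in neurons and 10.11 in whole brain. All glia array 4 and surface glia array 4 stood apart, with mean correlations to the other arrays of their group of 0.772 and 0.785. The results below were also computed without them, and no call on a member changed.

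A probe set was called where limma's adjusted p, over all probe sets, was under 0.05 and the log2 difference was at least 1. Values are log2, so a difference of 1 is a doubling, and a difference is always the group named first minus the group named after it. The 4 groups shared 1 estimate of the spread per probe set, although the median SD of a probe set was 0.58 in surface glia, 0.59 in all glia, 0.27 in neurons and 0.15 in whole brain. The number of arrays limits the precision. Levels are compared between groups within a probe set and not between genes.

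**Figure D1:**
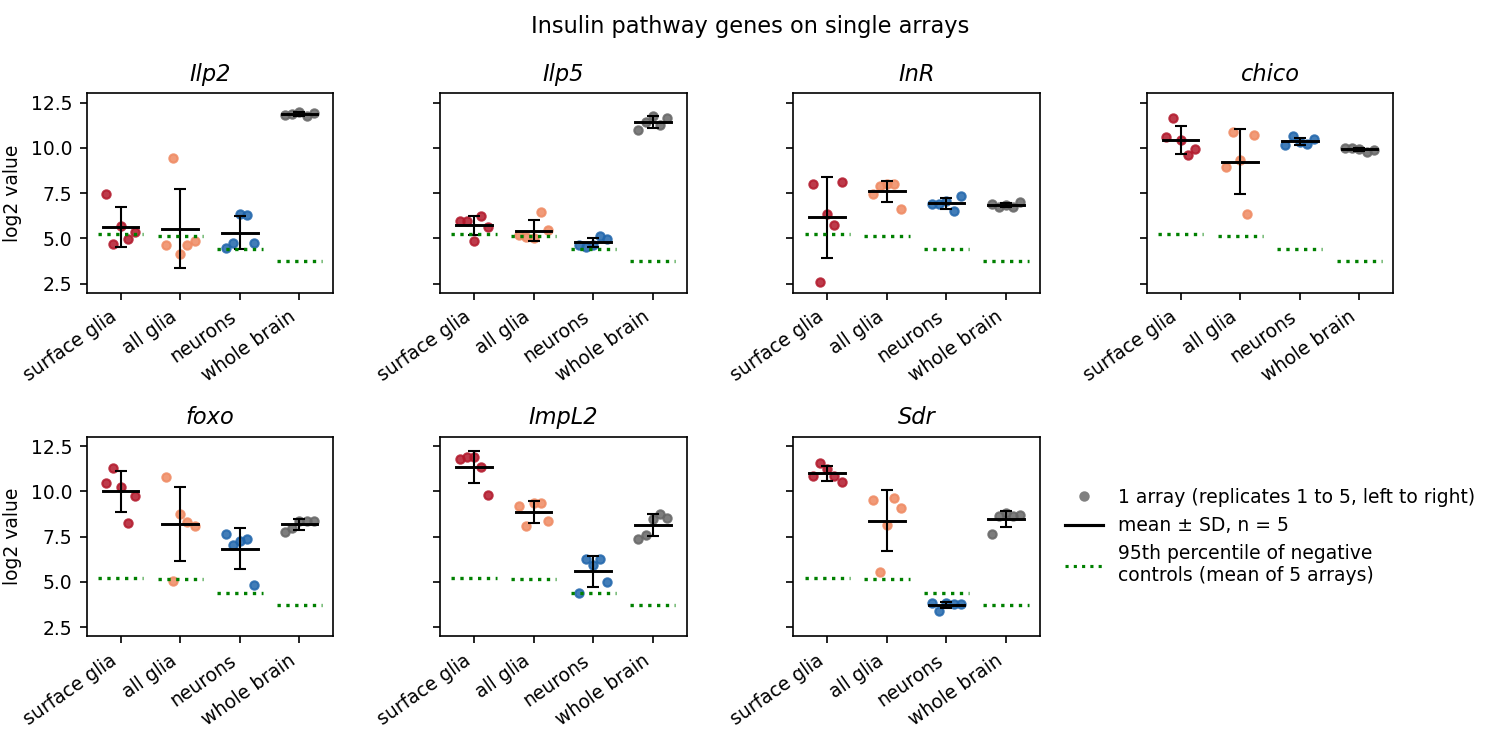
Log2 value of the 7 genes on every array (points, replicates 1 to 5 from left to right in each group), with the group mean and SD (black, n = 5) and the mean 95th percentile of the negative controls (green dotted line). Ilp2 and Ilp5 lie near 12 and between 11.01 and 11.78 in whole brain and mostly near background in the 3 sorts, while ImpL2 and Sdr are highest in surface glia.

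The peptide genes were measured first. Ilp2 and Ilp5, whose hormones are released by the insulin-producing cells, were abundant in whole brain and low in all 3 sorts, the neurons included. Both fell by more than 5 log2 units in each sort relative to whole brain, and no array of a sort reached the whole-brain range for either gene.

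Ilp2 had 7.46, 4.68, 5.67, 4.95 and 5.35 on the surface glia arrays and 4.65, 9.42, 4.12, 4.65 and 4.85 on those of all glia. It had 4.45, 4.77, 6.33, 6.27 and 4.72 in neurons, against 11.80, 11.86, 11.96, 11.75 and 11.94 in whole brain. Surface glia array 1 and all glia array 2 stood above the rest of their groups, neuron arrays 3 and 4 lay above the other neuron arrays, and the whole-brain arrays lay close together. Background was exceeded on 2 of 5 arrays in surface glia, 1 of 5 in all glia and 5 of 5 in neurons. The level averaged 5.62 ± 1.09 in surface glia, 5.54 ± 2.19 in all glia and 5.31 ± 0.91 in neurons, against 11.86 ± 0.09 in whole brain (SD, n = 5 each). The log2 difference of Ilp2 from whole brain was -6.24 in surface glia (SE 0.76, limma adjusted p = 4.13e-06), -6.32 in all glia (adjusted p = 5.69e-06) and -6.55 in neurons (adjusted p = 2.73e-06). These are 75.6-fold, 80.1-fold and 94.0-fold differences, whose size is uncertain in surface glia and all glia because most arrays there did not exceed background.

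The 3 sorts did not differ detectably from each other in Ilp2. Surface glia minus neurons was 0.31 with a 95% interval of -1.28 to 1.91, surface glia minus all glia was 0.08 with an interval of -1.51 to 1.68, and all glia minus neurons was 0.23 with an interval of -1.36 to 1.82. The order of the sorts rested on single arrays. Without surface glia array 1 the difference between surface glia and neurons was -0.15, and without all glia array 2 that between all glia and neurons was -0.74.

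Surface glia array 1, the array with the highest Ilp2 of its group, also had a high value for a marker of the corpora cardiaca, the gland beside the brain where axons of the insulin-producing cells end. Akh, the adipokinetic hormone gene that marks these gland cells, had 13.21 on that array and 5.81, 6.09, 6.59 and 5.87 on the other surface glia arrays. The other gene of the list for this gland complex, jhamt of the corpora allata, had 2.98 on that array, under its background. Ilp5 on the same array was 5.94, as on surface glia array 2. Akh was singled out after its values were seen, and its part in the Ilp2 value of that array was not tested. On all glia array 2, where Ilp2 was 9.42, Akh was 5.93 and Ilp5 was 5.06.

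Ilp5 had 5.94, 5.94, 4.85, 6.26 and 5.63 in surface glia and 5.16, 5.06, 5.02, 6.44 and 5.47 in all glia. It had 4.65, 4.50, 4.64, 5.12 and 4.96 in neurons, against 11.01, 11.43, 11.78, 11.26 and 11.66 in whole brain. All glia array 4 was the highest of its group, surface glia overlapped with all glia and with neurons, and no sort overlapped with whole brain. The level averaged 5.72 ± 0.54 in surface glia, 5.43 ± 0.59 in all glia and 4.77 ± 0.26 in neurons, against 11.43 ± 0.31 in whole brain (SD, n = 5 each). Its log2 difference from whole brain was -5.70 in surface glia (SE 0.28, limma adjusted p = 6.13e-11), -5.998 in all glia (adjusted p = 4.26e-11) and -6.65 in neurons (adjusted p = 3.52e-12), which are 52.1-fold, 63.9-fold and 101-fold differences.

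Between the sorts, Ilp5 in surface glia minus neurons was 0.95 (SE 0.28, limma adjusted p = 0.0136), which passed the test and missed the minimum size of 1. It exceeded 1 without surface glia array 3 and without neuron array 4. The medians of the negative controls themselves were 3.96 in surface glia, 3.79 in all glia and 3.15 in neurons, against 2.65 in whole brain, and thus moved the same way. The part of background in the Ilp5 difference was not tested.

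The insulin-producing cells are few, and the other transcripts of neurosecretory cells were looked at beside the peptides. Of 6 neurosecretory markers, 4 were not called and 2 were called lower in neurons than in whole brain, where 9.85% of all probe sets were. These 2 were svr, a carboxypeptidase gene of peptide processing, at -1.89 and 7B2, a convertase chaperone gene, at -1.44. The prohormone convertase gene amon averaged 12.84 in neurons and 12.96 in whole brain, with a difference of -0.12 (limma adjusted p = 0.903). The list averaged 9.22 in surface glia, 9.51 in all glia, 9.85 in neurons and 10.42 in whole brain, while Ilp2 and Ilp5 in neurons differed from whole brain by -6.55 and -6.65.

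Among other peptides of the family, Ilp7, known from neurons of the ventral nerve cord, averaged 5.13 in surface glia, 5.08 in all glia, 4.71 in neurons and 4.67 in whole brain, and no comparison called it. Ilp7 exceeded background on 3 of 5 arrays in surface glia, 1 of 5 in all glia, 4 of 5 in neurons and 5 of 5 in whole brain. Its means in both glial sorts lay under the background percentile. Ilp8, a peptide that imaginal discs release to delay development, averaged 6.11 in surface glia, 5.90 in all glia, 5.20 in neurons and 4.22 in whole brain. It was called higher in surface glia (1.89, limma adjusted p = 1.81e-05) and in all glia (1.68, adjusted p = 8.61e-05) than in whole brain, while the background percentile was higher there as well, at 5.23 in surface glia and 5.15 in all glia, compared with 3.72 in whole brain. The part of background in the call was not tested.

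Lgr3, the neuronal receptor of Ilp8, went the opposite way to Ilp2 and Ilp5 in neurons against whole brain only. It averaged 5.47 in surface glia, with 3 of 5 arrays above background, and 5.65 in all glia, near the 5.69 of whole brain. It had 8.96, 8.85, 7.39, 8.46 and 8.05 in neurons, against 5.72, 5.46, 5.57, 5.99 and 5.73 in whole brain, with no overlap. Lgr3 was higher in neurons than in whole brain by 2.65 (SE 0.46, limma adjusted p = 0.000313) and fell in surface glia relative to neurons, at -2.87 (adjusted p = 0.000163). Lgr4, a related receptor gene, fell in neurons relative to whole brain by 1.49 (adjusted p = 0.000216).

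The secreted partners of the peptides differed most between surface glia and neurons among the 7 genes. ImpL2 and Sdr were both higher in surface glia than in each of the other 3 groups, and both were higher in all glia and in whole brain than in neurons. Their arrays in surface glia did not overlap with those of any other group.

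ImpL2, whose probe set has the suffix of sets that can match several transcripts, had 11.78, 11.91, 11.90, 11.32 and 9.79 in surface glia and 9.21, 8.08, 9.36, 9.33 and 8.37 in all glia. It had 4.40, 6.27, 5.92, 6.28 and 5.01 in neurons, against 7.38, 7.60, 8.48, 8.72 and 8.51 in whole brain. Surface glia array 5 was the lowest of its group and still above every all glia and whole-brain array. The level averaged 11.34 ± 0.90 in surface glia, 8.87 ± 0.60 in all glia and 5.58 ± 0.84 in neurons, against 8.14 ± 0.60 in whole brain (SD, n = 5 each). ImpL2 was 54.3-fold higher in surface glia than in neurons (log2 difference 5.76, SE 0.45, limma adjusted p = 1.46e-08) and 9.20-fold higher than in whole brain (3.20, adjusted p = 1.56e-05).

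Against all glia, ImpL2 in surface glia was higher by 2.47 (limma adjusted p = 0.0027), and this call was lost in a fit of those 2 groups alone, at the same difference and an adjusted p of 0.0726. All glia exceeded neurons by 3.29 (adjusted p = 8.52e-05), and neurons fell below whole brain by 2.56 (adjusted p = 0.000348). All glia minus whole brain was 0.73 with a 95% interval of -0.20 to 1.67 and was not called (adjusted p = 0.174). ImpL2 therefore ran from surface glia through all glia and whole brain to neurons, and only all glia and whole brain, next to each other in that order, were not called different.

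Sdr had 10.82, 11.54, 11.25, 10.84 and 10.50 in surface glia and 9.52, 5.53, 8.16, 9.65 and 9.06 in all glia. It had 3.84, 3.39, 3.81, 3.76 and 3.80 in neurons, against 7.66, 8.62, 8.78, 8.64 and 8.68 in whole brain. None of the neuron arrays exceeded its background, so the neuronal value is only an upper limit, and all glia array 2 lay well under the other all glia arrays. The level averaged 10.99 ± 0.41 in surface glia, 8.38 ± 1.70 in all glia and 3.72 ± 0.19 in neurons, against 8.48 ± 0.46 in whole brain (SD, n = 5 each).

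The fitted Sdr difference from neurons was 7.27 in surface glia (95% interval 6.15 to 8.39, limma adjusted p = 6.77e-09). In all glia it was 4.66 (interval 3.54 to 5.79, adjusted p = 1.05e-05). Neurons minus whole brain was -4.76 (interval -5.88 to -3.63, adjusted p = 1.87e-06). Set against the mean background percentile of the neuron arrays in place of the neuronal mean, these sizes were 6.60, 3.99 and -4.08 on the log2 scale. Sizes against the percentile were not tested. Surface glia exceeded whole brain by 2.51 (SE 0.54, adjusted p = 0.000547), a 5.71-fold difference. Surface glia exceeded all glia by 2.61 (adjusted p = 0.00664), and this call too was lost in a fit of the 2 groups alone (adjusted p = 0.171). All glia and whole brain, next to each other in the order of levels, differed by -0.09 with an interval of -1.22 to 1.03, and the sign turned without all glia array 2 (0.62).

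Tissue around the brain also makes secreted proteins, and its markers were measured beside ImpL2 and Sdr. Of 9 fat body markers, 5 were called higher and 1 lower in surface glia than in neurons. Over all probe sets, 10.5% were called higher and 15.0% lower. The list mean ranged over arrays between 7.44 and 8.80 in surface glia, 7.34 and 7.64 in all glia, 6.004 and 6.31 in neurons, and 6.26 and 6.77 in whole brain. The yolk protein gene Yp1 rose by 5.42 in surface glia relative to neurons. The fat body protein genes Fbp1 and Fbp2 stayed within the negative controls on every surface glia, all glia and whole-brain array, so they do not separate these groups. Lsp2, among the higher, exceeded background on 1 of 5 surface glia arrays and 0 neuron arrays. The lower gene was FASN1, whose call was lost on leaving out any of 7 of the 10 arrays.

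Of 6 hemocyte markers, 4 were called higher and 0 lower in surface glia than in neurons, beside 10.5% and 15.0% of all probe sets. Their list mean ranged between 6.16 and 6.95 in surface glia, 5.84 and 6.37 in all glia, 4.58 and 4.83 in neurons, and 4.52 and 5.16 in whole brain. The blood cell gene He stayed within the controls in every group, so it does not separate them. The part of fat body and blood cells in the ImpL2 and Sdr levels was not tested. Surface glia array 3 also held muscle transcripts, with a muscle list mean of 12.10 against 5.09 to 5.42 on the other surface glia arrays. ImpL2 was 11.90 and Sdr 11.25 on that array, both within the range of the other surface glia arrays.

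**Figure D2:**
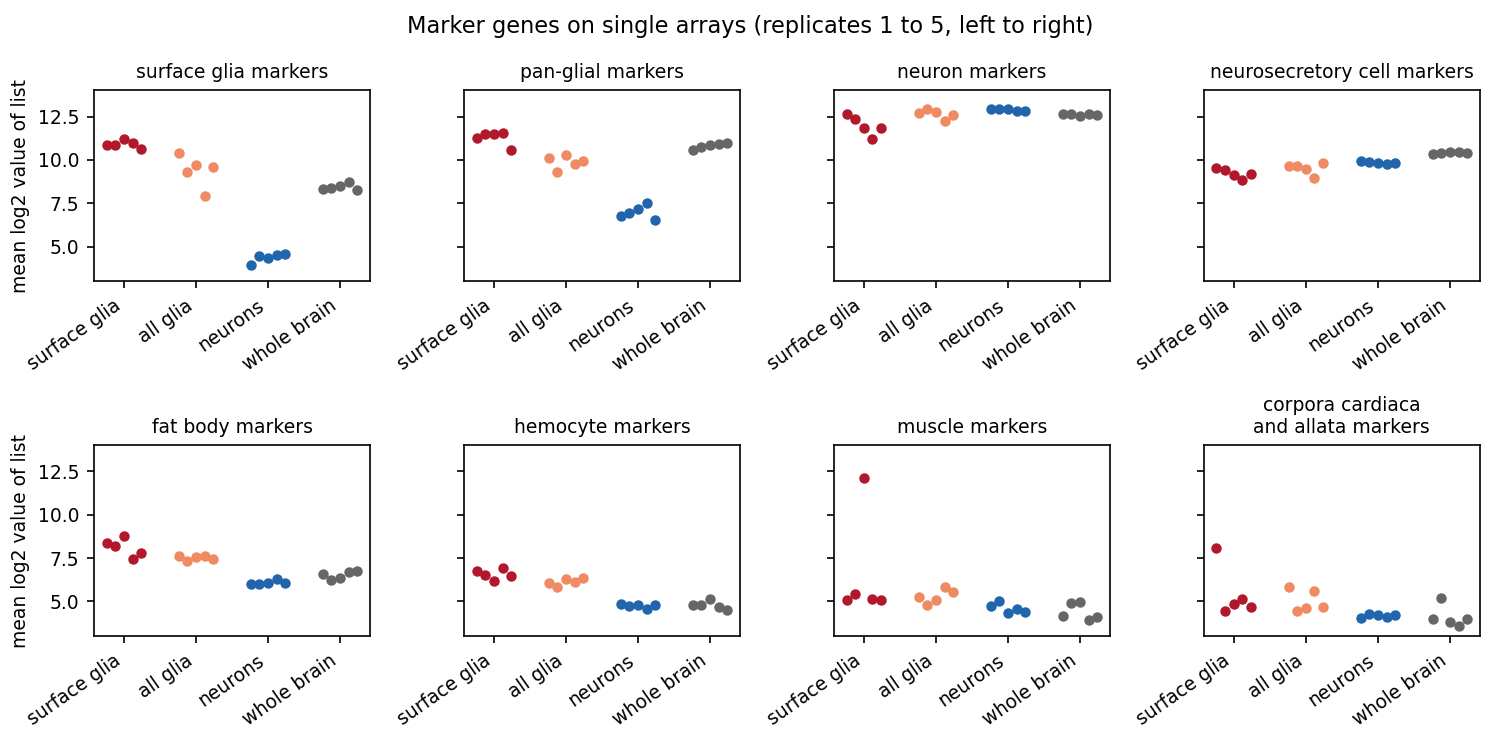
Mean log2 value of 8 marker lists on every array (points, replicates 1 to 5 from left to right in each group). Surface glia array 3 reaches 12.10 for muscle markers and surface glia array 1 reaches 8.10 for the 2 corpora cardiaca and allata markers, through Akh at 13.21 with jhamt at 2.98, while the fat body and hemocyte lists are higher in both glial sorts than in neurons.

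Other secreted or receptor genes that act beside the peptides did not share one direction. Of 5 measured, 1 was called higher and 2 lower in surface glia than in neurons, beside 10.5% and 15.0% of all probe sets. The gene that was higher was daw, an activin-like ligand. It had 9.44, 10.67, 11.30, 9.84 and 9.66 in surface glia and 8.29, 6.97, 7.13, 5.42 and 8.48 in all glia. It had 5.45, 4.93, 4.76, 3.70 and 4.81 in neurons, against 5.95, 5.95, 6.43, 6.64 and 6.35 in whole brain. The surface glia arrays lay above all others, and daw was higher there than in neurons by 5.45 (limma adjusted p = 1.02e-07), than in all glia by 2.92 (adjusted p = 0.00142) and than in whole brain by 3.92 (adjusted p = 4.44e-06).

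The receptor tyrosine kinase gene Alk and its ligand gene jeb, a pair known to act on brain growth when larvae starve, had differences between surface glia and neurons of -1.85 (limma adjusted p = 0.0213) and -2.30 (adjusted p = 0.0322), both called lower. Without surface glia array 4 neither was called, with Alk at -1.64 (adjusted p = 0.0574) and jeb at -1.73 (adjusted p = 0.102), and the jeb call was lost on leaving out any of 6 of the 10 arrays. The lipocalin gene NLaz stayed within the controls in surface glia, and its neuronal mean of 5.17 lay below the background percentile of surface glia, so no difference between them can be given. The gene conv, whose product forms a complex with ImpL2 and an insulin-like peptide, stayed within the negative controls in all 4 groups.

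The receptor gene InR showed no called difference in any of the 6 comparisons. It had 8.02, 2.60, 6.34, 5.71 and 8.11 in surface glia and 7.43, 7.91, 8.00, 8.02 and 6.64 in all glia. It had 6.91, 6.90, 7.08, 6.50 and 7.34 in neurons, against 6.88, 6.71, 6.83, 6.74 and 7.03 in whole brain. The surface glia arrays spread more widely than any other group and 3 of 5 exceeded background, while neuron and whole-brain arrays lay close together. The level averaged 6.16 ± 2.25 in surface glia, 7.60 ± 0.59 in all glia and 6.95 ± 0.31 in neurons, against 6.84 ± 0.13 in whole brain (SD, n = 5 each).

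For InR, surface glia minus neurons was -0.79 with a 95% interval of -2.23 to 0.65 (limma adjusted p = 0.328). Surface glia minus all glia was -1.44 with an interval of -2.88 to -0.01 (adjusted p = 0.273), and neurons minus whole brain was 0.11 with an interval of -1.33 to 1.54. The interval for neurons against whole brain holds differences of more than 2-fold in both directions. Its width rests on the spread shared by the 4 groups, with an SD of 2.25 in surface glia beside 0.31 in neurons and 0.13 in whole brain. Equal levels were not shown. Surface glia array 2, the lowest InR array at 2.60, had the highest chico, foxo, ImpL2 and Sdr of its group. Without that array, surface glia minus neurons was 0.10.

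The adaptor gene chico was present in every group and was called in no comparison. It had 10.62, 11.62, 10.45, 9.63 and 9.91 in surface glia and 8.92, 10.87, 9.33, 6.37 and 10.72 in all glia. It had 10.14, 10.64, 10.34, 10.22 and 10.46 in neurons, against 9.98, 10.01, 9.96, 9.77 and 9.87 in whole brain. All glia array 4, one of the arrays that stood apart, was the lowest. Every neuron array lay above every whole-brain array, and their means differed by 0.44 with an interval of -0.78 to 1.66 (limma adjusted p = 0.593). That interval rests on the spread shared by the 4 groups, which was widest in all glia. Over 17 other ways of fitting, the limma adjusted p went down to 0.00482. The differences then lay between 0.37 and 0.62, below the minimum size of 1. The level averaged 10.45 ± 0.77 in surface glia, 9.24 ± 1.82 in all glia and 10.36 ± 0.20 in neurons, against 9.92 ± 0.10 in whole brain (SD, n = 5 each). Surface glia minus neurons was 0.09 with an interval of -1.14 to 1.31, and surface glia minus all glia was 1.20 with an interval of -0.02 to 2.43 (adjusted p = 0.287). Without all glia array 4, all glia minus whole brain was 0.04, against -0.68 with it.

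The transcription factor gene foxo was higher in surface glia than in neurons. It had 10.45, 11.27, 10.24, 8.26 and 9.75 in surface glia and 10.81, 5.04, 8.73, 8.31 and 8.10 in all glia. It had 7.65, 7.03, 7.23, 7.38 and 4.85 in neurons, against 7.77, 7.98, 8.36, 8.36 and 8.38 in whole brain. Every surface glia array lay above every neuron array, surface glia array 4 lay within the whole-brain range, and all glia spanned nearly the whole range of the other groups. The level averaged 9.99 ± 1.11 in surface glia, 8.20 ± 2.07 in all glia and 6.83 ± 1.13 in neurons, against 8.17 ± 0.28 in whole brain (SD, n = 5 each). Surface glia exceeded neurons by 3.17 (SE 0.76, limma adjusted p = 0.00435), an 8.98-fold difference.

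Surface glia also exceeded whole brain in foxo, by 1.82 with a 95% interval of 0.23 to 3.42 (limma adjusted p = 0.0428). That call was lost in 10 of 17 other ways of fitting, at adjusted p values that ranged over all 17 between 0.00568 and 0.106, and the arrays overlapped. Leaving out any one whole-brain array, or any of surface glia arrays 1, 2, 3 and 5, was enough to lose it, with differences between 1.51 and 1.89. Surface glia minus all glia was 1.80 (adjusted p = 0.207) and neurons minus whole brain was -1.34 (adjusted p = 0.198), and neither was called. The foxo arrays of neurons and whole brain did not overlap, as for 51.4% of all probe sets. That difference was called in a fit of those 2 groups alone. All glia minus neurons was 1.37 and not called (adjusted p = 0.177). Without all glia array 2, where foxo was 5.04, it was 2.16 and was called (adjusted p = 0.0349).

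**Figure D3:**
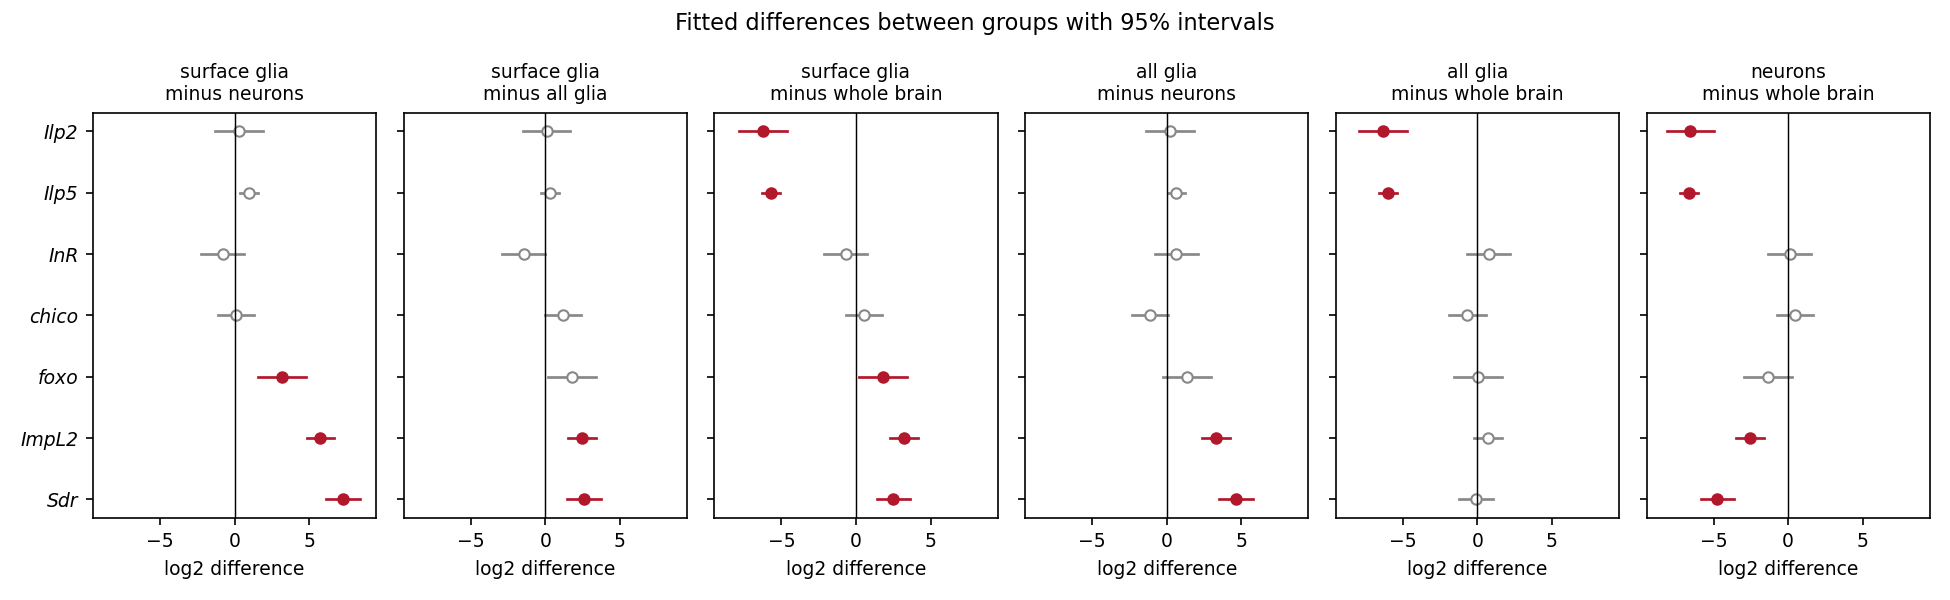
Fitted log2 difference (first group minus second) of the 7 genes in each of the 6 comparisons, with 95% intervals. Red filled points met both call criteria and grey open points did not. ImpL2 and Sdr lie to the right in each comparison of surface glia, and Ilp2 and Ilp5 lie far to the left in each comparison with whole brain.

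Counted over the 7 genes, 3 were called higher and 0 lower in surface glia than in neurons, where 25.5% of all probe sets were called in either direction and 10.5% were called higher and 15.0% lower. The 3 were ImpL2, Sdr and foxo, and the arrays of 3 genes did not overlap, against 29.6% of all probe sets. The median difference of the 7 was 0.95, beside 0.36 over all probe sets. In surface glia against all glia, 2 were called higher, ImpL2 and Sdr, and 0 lower, where 4.75% of all probe sets were called, 2.46% higher and 2.29% lower. The arrays of both did not overlap, against 2.54% of all probe sets, and the median difference was 1.20 beside 0.05.

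In surface glia against whole brain, 3 were called higher and 2 lower, where 51.0% of all probe sets were called, 31.6% higher and 19.4% lower, so the count lies near that of the array as a whole. The arrays of 4 genes did not overlap, against 56.7% of all probe sets. In all glia against neurons, 2 were called higher, ImpL2 and Sdr, and 0 lower, where 7.52% of all probe sets were called, 3.18% higher and 4.35% lower, and the arrays of 2 did not overlap, against 18.0%. In all glia against whole brain, 0 were called higher and 2 lower, Ilp2 and Ilp5, where 39.4% of all probe sets were called, 24.7% higher and 14.8% lower, and the arrays of 2 did not overlap, against 52.8%. In neurons against whole brain, 0 were called higher and 4 lower, Ilp2, Ilp5, ImpL2 and Sdr, where 13.6% of all probe sets were called, 3.79% higher and 9.85% lower. The arrays of 6 genes did not overlap there, against 51.4% of all probe sets, and the median difference was -2.56 beside 0.27. The comparisons share groups of arrays and are not independent of each other.

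Downstream of the receptor, 6 of 14 genes listed between the receptor and Akt had a named probe set. In surface glia against neurons 0 were called higher and 1 lower, beside 10.5% and 15.0% of all probe sets. The median difference was -0.67 beside 0.36 over all probe sets. The lower gene was Sos, an exchange factor that links receptors to Ras, at -1.44 (limma adjusted p = 0.00864), and Sos was also higher in neurons than in whole brain at 1.41 (adjusted p = 0.0153). Akt, the kinase that phosphorylates Foxo, had 10.96, 12.00, 11.70, 6.40 and 12.12 in surface glia and 11.36, 10.40, 11.42, 11.36 and 10.78 in all glia. It had 11.61, 11.68, 10.97, 11.55 and 11.34 in neurons, against 10.18, 9.91, 10.08, 10.05 and 10.16 in whole brain. Surface glia array 4 lay far below the rest of its group, and Akt in surface glia minus neurons was -0.79 with an interval of -2.30 to 0.72. Its sign rests on that array: the median was 11.70 in surface glia and 11.55 in neurons, and without array 4 the difference was 0.27 (limma adjusted p = 0.396). The adaptor gene Lnk was not analysed here, since no probe set named it alone.

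Of 17 measured genes listed here under the TOR arm, which couples nutrients and insulin to growth, 0 were called higher and 3 lower in surface glia than in neurons, where 10.5% of all probe sets were called higher and 15.0% lower. The median difference was -0.70 beside 0.36 over all probe sets. The 3 lower genes were Lst8, a subunit of both TOR complexes, at -2.75 (limma adjusted p = 0.016), S6kII, a kinase of the ribosomal S6 kinase group listed here beside S6k, at -2.38 (adjusted p = 0.00361) and Atg1, the kinase that starts autophagy, at -1.87 (adjusted p = 0.00883). S6kII exceeded background on 2 of 5 surface glia arrays, so its size is uncertain. Surface glia array 5, at 7.89, lay within its neuronal range of 7.56 to 8.64. S6k averaged 7.77 in surface glia and 9.02 in neurons and was not called. Lst8 had 5.16, 9.45, 6.83, 3.72 and 7.87 on the surface glia arrays, against 9.38, 9.48, 9.34, 9.47 and 9.10 on the neuron arrays. Surface glia array 2 fell within the neuronal range, so the arrays overlapped, and without array 4 Lst8 was at -2.03 and no longer called (limma adjusted p = 0.0517). In neurons against whole brain 0 were called higher and 1 lower, the cap-binding factor gene eIF4E1 at -1.03 (adjusted p = 0.00809), which fell below the minimum size without whole brain array 3, neuron array 3 or neuron array 5. There 3.79% of all probe sets were called higher and 9.85% lower. Thor, the 4E-BP gene often used as a readout of Foxo, was not analysed here.

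Of 15 listed partners and targets of Foxo, 3 were called higher in surface glia than in neurons, 2 were called lower and 10 were not called. Over all probe sets, 10.5% were called higher and 15.0% lower. The median difference was -0.27 beside 0.36 over all probe sets. The list mixes partners with targets, so this median does not measure the activity of Foxo. Sesn, the sestrin gene, had 10.82, 11.83, 11.83, 11.29 and 9.77 in surface glia and 10.71, 10.33, 9.74, 10.39 and 7.93 in all glia. It had 8.09, 8.56, 9.06, 8.27 and 7.31 in neurons, against 8.56, 8.51, 8.99, 9.30 and 9.07 in whole brain. Its surface glia arrays lay above those of neurons and whole brain, and it was higher in surface glia than in neurons by 2.85 (limma adjusted p = 0.000235) and than in whole brain by 2.22 (adjusted p = 0.000523).

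The kinase gene Lk6 was higher in surface glia than in neurons by 1.11 (limma adjusted p = 0.00023) but lower than in whole brain at -1.19 (adjusted p = 3.55e-05). The lipase gene Lip4 stayed within the negative controls in neurons, and in surface glia it exceeded background on 1 of 5 arrays, with a mean of 5.31 beside the background percentile of 5.23. It counts as the third higher gene, but both levels lie at background and no size is given. HDAC4, a deacetylase gene whose product acts on Foxo, went the other way. It had 6.50, 5.62, 4.85, 5.26 and 6.06 on the surface glia arrays, against 8.95, 9.09, 8.54, 8.47 and 8.61 on the neuron arrays, with no overlap and a difference of -3.07 (adjusted p = 0.000135). HDAC4 exceeded background on 3 of 5 surface glia arrays, so the size is uncertain. The other lower gene was bsk, the JNK kinase gene, at -1.01 (adjusted p = 0.009), which was no more than just past the minimum size and fell below it without neuron array 1 or 3 or surface glia array 2 or 3. In the RefSeq gene table of the assembly named Release 6 plus ISO1 MT, bsk and me31B are the protein-coding neighbours of chico, which was not called.

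**Figure D4:**
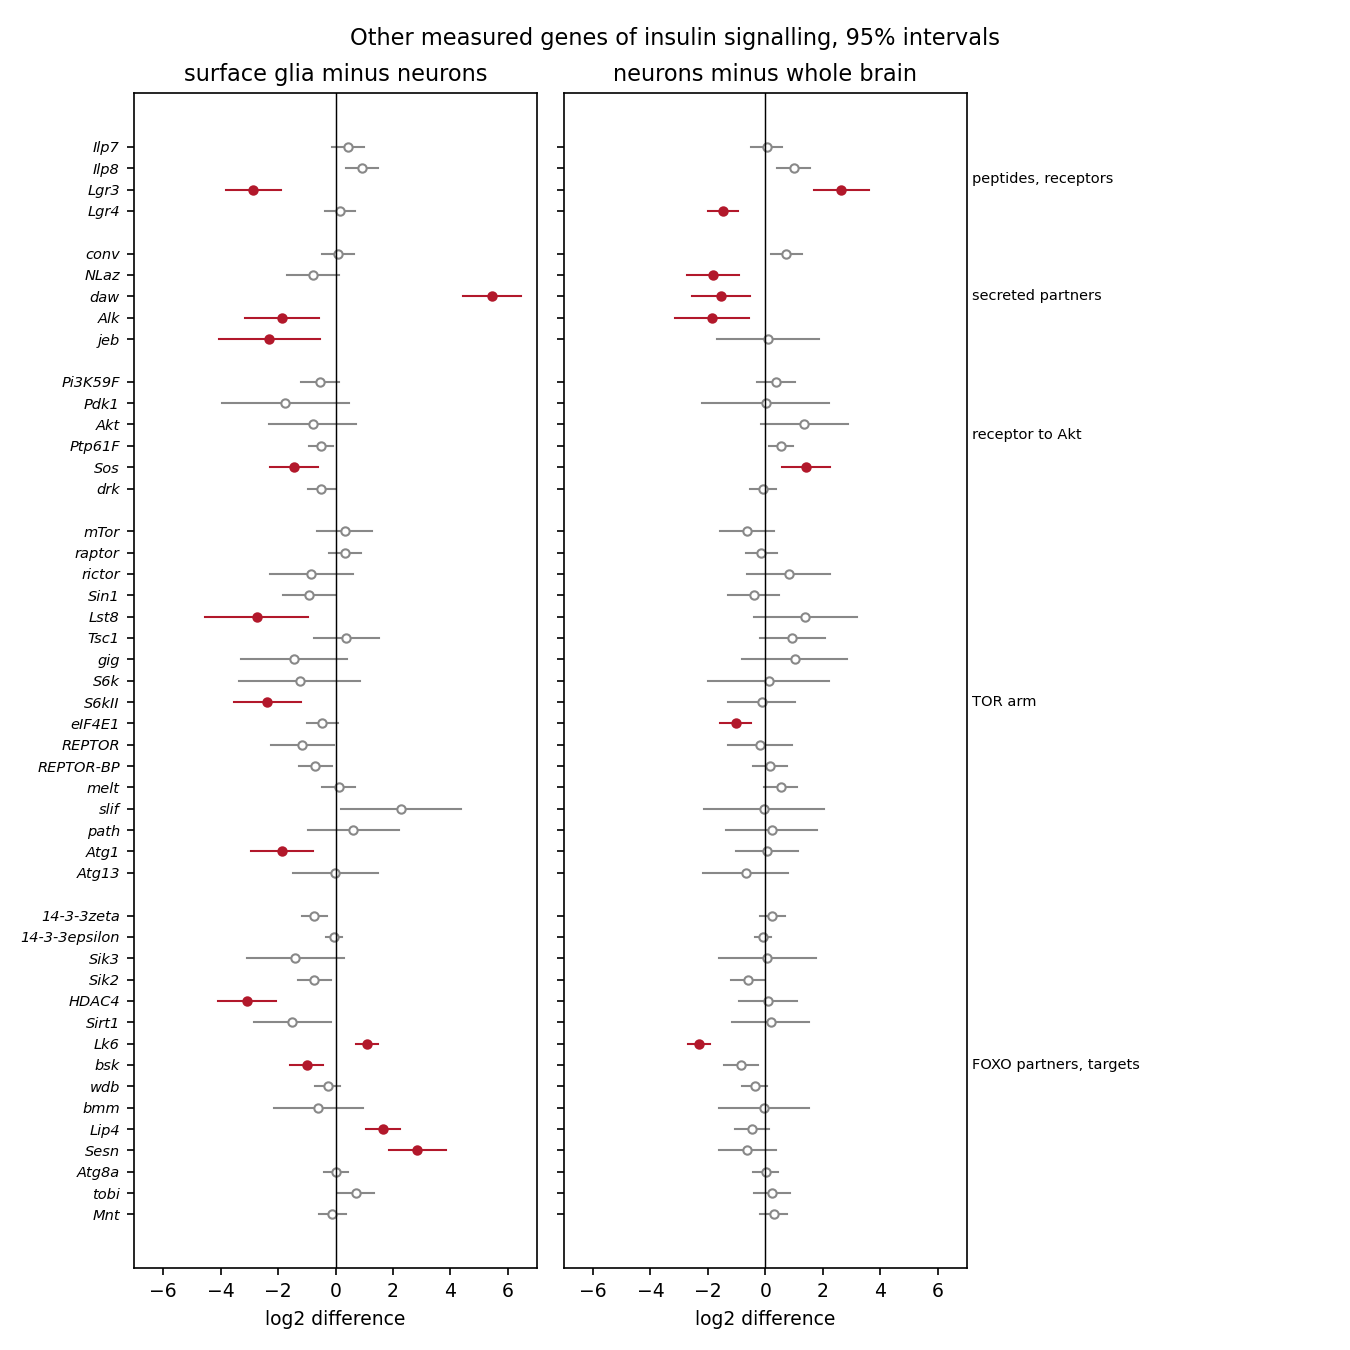
Fitted log2 difference with 95% interval of each other measured gene of insulin signalling, by list, for surface glia minus neurons (left panel) and neurons minus whole brain (right panel). Red filled points were called and grey open points were not. Most points of the chain between receptor and TOR lie near or below 0 in the left panel, and daw stands out at 5.45.

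Of 24 measured genes known to regulate the insulin-producing cells, 4 were called higher and 9 lower in surface glia than in neurons. Over all probe sets, 10.5% were called higher and 15.0% lower. The median difference was -0.47 beside 0.36 over all probe sets. Among the higher, the potassium leak channel gene Ork1 exceeded background on 1 of 5 surface glia arrays and 0 neuron arrays. Leaving out any of 6 of the 10 arrays lost its call. For the receptor gene CCHa2-R, higher by 1.07, leaving out any of 3 arrays did so. The call of the peptide gene CCHa2, among the lower, was lost on leaving out any of 6. The peptide gene ITP had 11.80, 11.71, 12.25, 11.44 and 11.80 in surface glia and 9.09, 9.20, 11.05, 10.18 and 9.61 in all glia. It had 5.86, 5.75, 5.85, 5.95 and 5.98 in neurons, against 12.15, 12.14, 12.09, 11.99 and 12.10 in whole brain. Like Ilp2 and Ilp5, ITP was much lower in neurons than in whole brain, at -6.22 (limma adjusted p = 4.53e-12), while surface glia minus whole brain was -0.29 (SE 0.28) and was not called.

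The genes lower in surface glia than in neurons included ey, a Pax6 gene that promotes Ilp5 expression in the insulin-producing cells, at -3.25 (limma adjusted p = 0.00171) and the serotonin receptor gene 5-HT1A at -3.14 (adjusted p = 0.00159). In neurons against whole brain, 4 were called higher and 3 lower, ey among the higher at 2.43 (adjusted p = 0.0157). There 3.79% of all probe sets were called higher and 9.85% lower. Ork1 stayed within the controls in neurons, and its fitted level there was called lower than in whole brain (limma adjusted p = 0.000151). Set against the background percentile, the size was -2.92, which was not tested.

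The genes whose pattern over the 20 arrays was most like that of a member were found by the mean absolute difference of values centred on each gene's own mean, among 9442 genes. For Ilp2 they were Orcokinin, a neuropeptide gene, at 0.86, Ilp5 at 0.94 and Gat at 0.95. For Ilp5 they were Trissin, another peptide gene, at 0.36, CG4409 at 0.42 and rumpel, a transporter gene of glia, at 0.49. Peptide genes and glial genes thus shared the pattern of a high whole-brain level and low levels in all 3 sorts. Trissin averaged 4.50 in surface glia, 4.52 in all glia and 3.78 in neurons, against 10.24 in whole brain.

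For ImpL2 the closest genes were CG7530 at 0.49, CG9360 at 0.50 and CG7135 at 0.57. For Sdr they were spri at 0.61, Gp150 at 0.65 and Spn43Ab, a serpin gene, at 0.66. Gp150 averaged 11.11 in surface glia, 9.00 in all glia and 3.99 in neurons, against 7.94 in whole brain, which follows the order of Sdr except that all glia lay above whole brain. For foxo the closest were Shmt and ReepA at 0.72 and IP3K2 at 0.73. For chico they were Akap200 at 0.39, Cnx99A at 0.40 and RapGAP1 at 0.41, and for InR they were Spg7 at 0.44, Cortactin at 0.48 and ome at 0.50. All arrays contribute to these measures, including those that stood apart, and they are descriptions without a test.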

How the data were processed

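The authors' deposited values are log2 signals, 1 per probe set and array, after their normalization and summary. The submitters' processing notes name RMA, affy and limma and give no version or parameter. RMA returns log2 values, and their range was checked against that scale. The genome build and scanner steps behind the deposited values are not given in the sources used here. Of 18952 probe sets, 183 controls were left out and 18769 tested, and 13646 carried 1 gene symbol, 402 several and 4721 none. RMA makes overall intensity distributions alike, so differences are relative to it; the median difference over all probe sets was between 0.05 and 0.39.

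Each of the 6 pairs of groups was tested in a single limma fit (limma 3.58.1, R 4.3.3) of the 20 arrays, 1 mean for each group, empirical Bayes spread and Benjamini-Hochberg adjustment over all probe sets; this step was tested on simulated data. A gene whose probe set exceeded the 95th percentile of the negative controls on no array of a group was set against that percentile there. Such sizes have no test of their own. Genes were named as members, or from each list as up to 4 called genes of largest difference in surface glia against neurons or neurons against whole brain, with a few fixed by name. The members and lists were chosen with earlier results of these data known. Alternatives were another normalization, array centring, a filter on dim probe sets, a replicate block, left-out arrays, 2-group fits and no minimum difference.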

Additional observations from a re-analysis of the deposited data

Results flagged for a closer look

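Of 28 groups of 5 arrays, 4 for each of 7 genes, 5 held an array that lay far from the others by Dixon's test, which chance gives in about 1 in 20 groups. Ilp2 on all glia array 2 was 9.42, where the nearest all glia array was 4.85. On the same array Sdr was 5.53 and foxo 5.04, the lowest of their group, and the surface glia marker Mdr65 was 10.88. ImpL2 on surface glia array 5 was 9.79, where the nearest was 11.32, and it remained above every all glia array. Sdr on neuron array 2 was 3.39, where the nearest was 3.76, and all neuron arrays lay below background for Sdr. Sdr on whole-brain array 1 was 7.66, where the nearest was 8.62. ImpL2 was also lowest on that array, at 7.38. The foxo value of neuron array 5 was 4.85, where the nearest was 7.03 and the background percentile of that array was 4.63. The causes were not tested.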

How the results depend on the processing

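Of 42 differences, 18 were called, and 15 of these were called under all 17 alternatives, with 0 reversed. The other 3 were ImpL2 and Sdr in surface glia against all glia, lost when only the 2 groups entered the fit, and foxo in surface glia against whole brain. The count called in surface glia against all glia was then 0, and over all probe sets it was 28 in place of 891. A second quantile normalization gave 5423 calls in place of 9570 for surface glia against whole brain, 3869 in place of 7401 for all glia against whole brain and 897 in place of 1412 for all glia against neurons. With no minimum difference there were 9211 calls in place of 4779 for surface glia against neurons, 2613 in place of 1412 for all glia against neurons and 4402 in place of 2560 for neurons against whole brain. Of 24 differences not called, 4 were called under some alternative, among them ImpL2 in all glia against whole brain at 1.28 after quantile normalization.

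Signs turned only among differences that were not called. They did so for chico in surface glia against neurons after median centring (-0.052), Ilp2 in all glia against neurons (-0.0743) and Sdr in all glia against whole brain (0.42) after quantile normalization, and chico in all glia against whole brain without all glia 4 and surface glia 4 (0.042). Leaving out 1 array gave ranges of -0.15 to 0.57 for Ilp2, -1.28 to 0.10 for InR and -0.21 to 0.29 for chico in surface glia against neurons. The ranges were -0.38 to 1.05 for Ilp2 in surface glia against all glia, -1.17 to 0.21 for InR in surface glia against whole brain and -0.74 to 0.58 for Ilp2 in all glia against neurons. In all glia against whole brain they were -0.41 to 0.62 for Sdr, -1.08 to 0.042 for chico and -0.63 to 0.82 for foxo. Leaving out 1 array of the compared groups, an alternative chosen after seeing the data, gave -1.17 to 0.27 for Akt in surface glia against neurons. The cause was not tested.

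Arrays of the same replicate number were mostly not alike. Of 30 pairs of same-numbered arrays, 2 had a correlation of deviations over 0.1 (range -0.02 to 0.38), and 10 correlated best with their own number. Both of these 2 pairs were between surface glia and all glia. They were the arrays numbered 4, which stood apart, at 0.38 and those numbered 1 at 0.195. With a replicate block the counts called were 3, 2, 5, 2, 2 and 4, as without it, and ImpL2 in surface glia minus neurons was again 5.76. Calls over all probe sets with the block were 4909 in place of 4779 for that comparison and 1702 in place of 1412 for all glia against neurons. Signals near background limit Ilp2 and Ilp5 in the sorts and Sdr in neurons.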
